A study of Mus musculus with 6 samples.

Results

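Aortic valve transcript levels were examined for 10 genes that act on procollagen between its synthesis and its assembly into fibrils: P4ha1, P4ha2, P4ha3, Plod1, Plod2, Plod3, Serpinh1, Bmp1, Pcolce and Pcolce2. The genes were taken by symbol from the 46983 genes measured. No value entered the rule that took them, but the list was made with earlier results of these data known. All 10 were above the low-value filter in the test across genes. Aortic valves came from wild type C57BL/6J mice at postnatal day 2 (PND2), when leaflets are still growing, and at 4 months, when they are mature. Each age had 3 libraries, each from the pooled valves of 5 to 6 mice, so 1 library stands for several animals and differences between single mice cannot be seen. No allele or treatment was introduced at either age. The comparison asks which of these transcripts differ between the growing and the adult valve.

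Collagen polypeptides are modified and folded in the endoplasmic reticulum before they are secreted. Prolyl 4-hydroxylase hydroxylates prolines, which stabilizes the triple helix, and lysyl hydroxylases hydroxylate lysines that later carry sugars or form cross-links. The chaperone encoded by Serpinh1 (also called HSP47) holds the folded helix, and outside the cell the C-proteinase Bmp1, helped by the enhancers Pcolce and Pcolce2, removes the C-terminal propeptide so that fibrils can form. In the aortic valve, fibrillar collagen forms the load-bearing fibrosa layer.

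Libraries held 23810507 to 38994657 reads, and each member was covered by 131 to 57267 reads in a library. Levels are given as RPKM, reads scaled to the joint length of all annotated exons of a gene and to the library total. That length includes long annotated exons with few reads for their length, so levels of different genes compare only roughly. Fold changes are log2(RPKM + 0.1) at 4 months minus PND2, with their standard error (SE), from limma fitted over 25903 genes, and a gene was called at a Benjamini-Hochberg adjusted p under 0.05. At that threshold 35.8% of all genes tested were called, 14.7% higher and 21.1% lower at 4 months, and their median log2 fold change was -0.14. After the libraries were scaled to a common median this median was -0.02, and 52.3% rather than 41.1% of all calls were higher at 4 months. Vim, Postn and the other markers of valve interstitial cells summed to 3854 to 4084 RPKM at PND2 and 6494 to 8312 at 4 months, with 2 of 8 genes higher and 2 lower. The samples also carried transcripts of other cell types, although heart muscle was to be kept out at dissection. Endothelial cells are part of the valve itself, where the study describes them as a layer around the leaflet. Cardiomyocyte markers summed to 17014 to 19288 RPKM at PND2 and 6108 to 10157 at 4 months (4 of 8 lower), and smooth muscle markers to 3039.8 to 3368 and 7125 to 11649.5 (5 of 5 higher). Endothelial markers summed to 321 to 444 RPKM and 192 to 215 (6 of 6 lower), macrophage markers to 129 to 161 and 276 to 348 (4 of 5 higher), and adipocyte markers to 63.7 to 147 and 127 to 472 (5 of 6 higher, with Cidec, Lep and Retn at 0 in all PND2 libraries). Chondrocyte markers ran from 79.6 to 180 RPKM and 188 to 679 (1 higher and 2 lower of 4 tested), Schwann cell markers from 10.3 to 21.9 and 37.2 to 45.1 (2 of 4 higher), and erythroid markers from 1243 to 1744 and 497 to 1454 (0 of 4 tested were called by limma or by voom, and 1 had an unadjusted p under 0.05). The part of these shifts in the results that follow was not tested, and in bulk tissue fewer cells of a type and less RNA per cell cannot be told apart.

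Of the 10 genes, 5 were called, against 35.8% of all genes tested. Pcolce and Pcolce2 rose and P4ha3, Plod1 and Bmp1 fell. P4ha3 and Pcolce2 were also past a 2-fold change, as were 17.2% of all genes tested. The median log2 fold change of the 10 was -0.22. The libraries of the ages did not overlap for 6 genes, 2 higher and 4 lower at 4 months, whereas 50.0% of all genes tested did not overlap, 20.0% higher and 29.9% lower. After median scaling 4 were called, 2 higher and 2 lower.

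**Figure D1:**
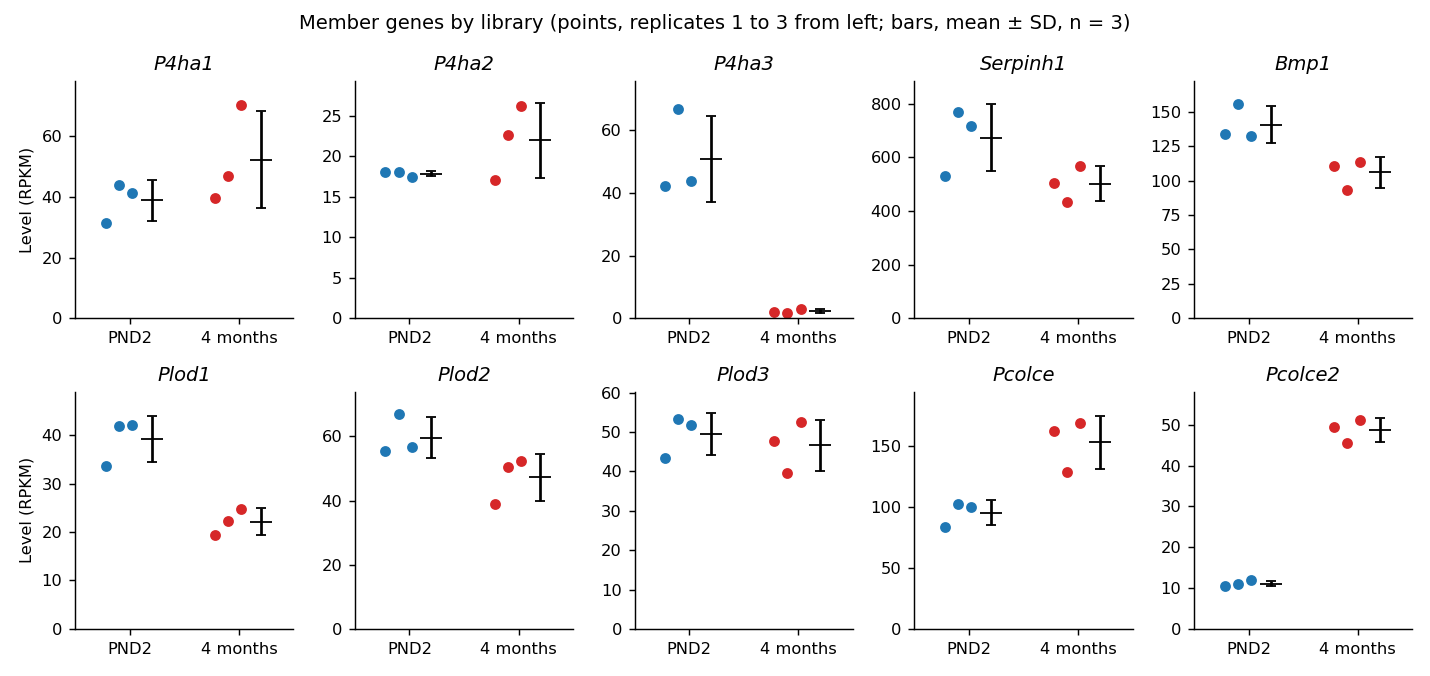
RPKM of each of the 10 genes in every library, with the vertical axis starting at 0. Points are replicates 1 to 3 from left to right, blue for PND2 and red for 4 months, and the bars beside them give the mean ± SD (n = 3); P4ha3 falls from 50.8 to 2.26 RPKM and Pcolce2 rises from 11.1 to 48.7, with no overlap between the ages.

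The largest difference among the 10 genes was in P4ha3, which encodes a catalytic alpha subunit of prolyl 4-hydroxylase (ENSMUSG00000051048, chr7:100285520-100319699, + strand, mm10). P4ha3 stood at 42.1, 66.6 and 43.8 RPKM in the PND2 libraries and at 1.97, 1.81 and 3.01 RPKM in the 4 month libraries. Every PND2 library was far above every 4 month library. The mean was 50.8 ± 13.7 RPKM (SD, n = 3) at PND2 and 2.26 ± 0.651 RPKM at 4 months, 22.5-fold lower. The log2 fold change was -4.43 (SE 0.25), with a limma adjusted p of 5.09e-05, and it passed the threshold in all 16 alternative fits. The 4 month values rest on 224, 131 and 265 reads. Of the 18 exons of P4ha3 tested, 18 had a lower RPKM in every 4 month library than in every PND2 library, as had 26.4% of all exons tested. Some of these exons are overlapping versions that share reads.

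P4ha1 and P4ha2, which encode the other alpha subunits, did not pass the threshold. P4ha1 (ENSMUSG00000019916, chr10:59323296-59373304, + strand) measured 31.3, 44.0 and 41.3 RPKM at PND2 and 39.6, 46.9 and 70.3 RPKM at 4 months. Its ranges overlapped, with replicate 3 of 4 months highest, and the log2 fold change was 0.40 (SE 0.23, limma adjusted p = 0.214). Without that library it was 0.16, and without replicate 1 of PND2 it was 0.25. P4ha2 (ENSMUSG00000018906, chr11:54100095-54131665, + strand) measured 18.1, 18.0 and 17.5 RPKM at PND2 and 17.1, 22.6 and 26.2 RPKM at 4 months. The PND2 libraries lay close together and within the range of the adult ones. Its log2 fold change was 0.28 (SE 0.16, limma adjusted p = 0.223), and without replicate 1 of 4 months it was 0.44 with an adjusted p of 0.0351. Without replicate 3 of 4 months it was 0.14 with an adjusted p of 0.548.

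The make-up of the alpha subunit pool, as shares of summed gene RPKM, differed between the ages. These shares depend on annotated exon length and are not shares of transcripts. At PND2, P4ha2 exons of 1525 and 1424 bases measured 5.71 to 8.29 RPKM, and its exon of 194 bases 49.9 to 56.9 RPKM. P4ha3 supplied 46.0, 51.8 and 42.7% of the summed P4ha1, P4ha2 and P4ha3 RPKM in the PND2 libraries and 3.36, 2.54 and 3.02% in the 4 month libraries. P4ha1 went from 36.2 ± 3.51% (SD, n = 3) to 67.9 ± 2.46% of the pool, and P4ha2 from 16.96 ± 2.89% to 29.1 ± 2.68%. None of the 3 shares overlapped between ages, and the exact permutation test (2-sided) gave p = 0.1 for each, the smallest p that 3 libraries against 3 can reach. The shares are parts of the same sum, so the fall of P4ha3 raises the others and they are not separate results. The ratio of P4ha1 to P4ha2 overlapped, at 2.18 ± 0.391 and 2.36 ± 0.304 (exact permutation p = 0.7, n = 3). Their summed RPKM overlapped too, at 56.7 ± 6.52 and 74.2 ± 20.3 (exact permutation p = 0.3). The summed level of the 3 alpha subunits was 108 ± 19.0 RPKM at PND2 and 76.5 ± 20.9 RPKM at 4 months, with overlapping libraries (n = 3, exact permutation p = 0.2). P4hb, which encodes the beta subunit shared by all 3 enzymes (protein disulfide isomerase), fell from 525 ± 69.5 to 338 ± 28.0 RPKM (log2 fold change -0.63, SE 0.13, limma adjusted p = 0.00939). The ratio of alpha subunits to P4hb was 0.204 ± 0.00886 at PND2 and 0.228 ± 0.0674 at 4 months, and its ranges overlapped (exact permutation p = 0.7, n = 3).

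**Figure D2:**
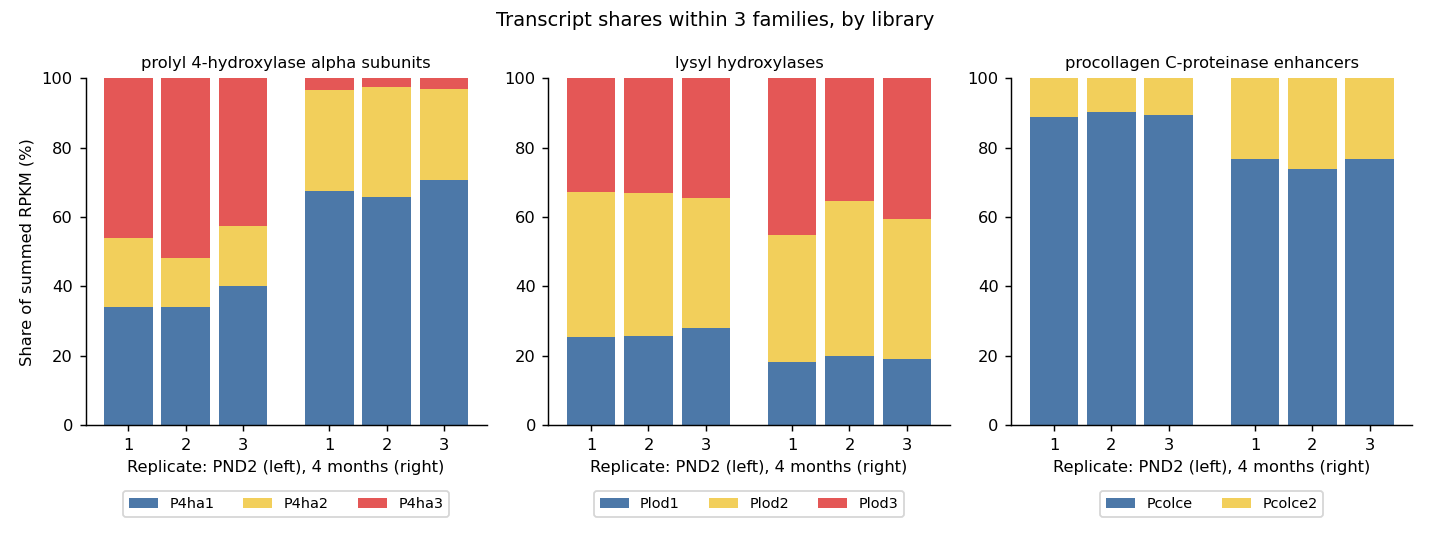
Shares of the summed RPKM (vertical axis, percent) within 3 families in each library, with PND2 replicates on the left and 4 month replicates on the right of each panel. P4ha3 makes up 42.7 to 51.8% of the alpha subunit pool at PND2 and 2.54 to 3.36% at 4 months, Plod1 loses share within the lysyl hydroxylases, and Pcolce2 gains share among the C-proteinase enhancers.

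P4ha1 transcripts carry 1 of a pair of mutually exclusive exons of equal length, and P4ha2 has a comparable pair; the exons are printed because the reads on the P4ha1 pair differed between the ages. The P4ha1 exons lie 939 bases apart at chr10:59354340-59354410 and chr10:59355350-59355420 (mm10, + strand), both coding, and no annotated coding transcript in GENCODE M21 holds both. They have 71 bases each and are identical at 42 positions. The P4ha2 exons lie 48 bases apart at chr11:54126238-54126297 and chr11:54126346-54126411 (mm10, + strand), with 60 and 66 bases, 37 of them identical when aligned. Sequences are 5′ to 3′ from the reference genome, and capitals mark bases that differ from the partner exon.
P4ha1 upstream exon: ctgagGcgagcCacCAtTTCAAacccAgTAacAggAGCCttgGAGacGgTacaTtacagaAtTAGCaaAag
P4ha1 downstream exon: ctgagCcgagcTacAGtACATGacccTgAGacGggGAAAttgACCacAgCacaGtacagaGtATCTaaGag
P4ha2 upstream exon: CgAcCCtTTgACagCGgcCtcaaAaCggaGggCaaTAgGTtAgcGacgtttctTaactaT
P4ha2 downstream exon: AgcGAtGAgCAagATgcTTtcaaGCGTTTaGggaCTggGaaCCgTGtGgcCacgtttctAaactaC

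In P4ha1 the downstream exon held a larger share of the reads on the pair at 4 months. It took 34.7% (exact 95% binomial interval 28.8 to 40.9), 14.04% (10.2 to 18.6) and 30.3% (24.4 to 36.7) in the PND2 libraries. In the 4 month libraries it took 49.4% (43.3 to 55.6), 62.0% (55.0 to 68.6) and 63.3% (57.8 to 68.5). These intervals cover counting error only, and they take reads as independent. Sequencing was paired-end, and whether reads or pairs were counted is not given in the sources used here. The intervals may therefore be too narrow. The mean went from 26.3 ± 10.9% to 58.2 ± 7.64% (SD, n = 3), the ages did not overlap, and the exact permutation p was 0.1, the smallest possible. The downstream share passed 50% in 0 of 3 PND2 libraries and in 2 of 3 libraries of 4 months. This pair measure was chosen after the exon values were seen. In the test across all 224976 exons, where exon RPKM is taken relative to gene RPKM, the upstream exon changed by -1.01 log2 (SE 0.21, limma adjusted p = 0.258) and the downstream exon by 1.05 (SE 0.34, adjusted p = 0.403), so neither exon passed on its own.

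For the P4ha2 pair the downstream exon, per length, held 52.4, 48.6 and 34.9% at PND2 and 26.2, 35.0 and 25.5% at 4 months. The ranges overlapped (exact permutation p = 0.2, n = 3), with means of 45.3 ± 9.23% and 28.9 ± 5.28%. Both exons also lie within an annotated exon of 1525 bases (chr11:54126238-54127762), so reads of that form count for both. That exon measured 7.80, 8.29 and 7.73 RPKM at PND2 and 8.92, 14.3 and 18.4 RPKM at 4 months. Its part in the shares was not tested.

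**Figure D3:**
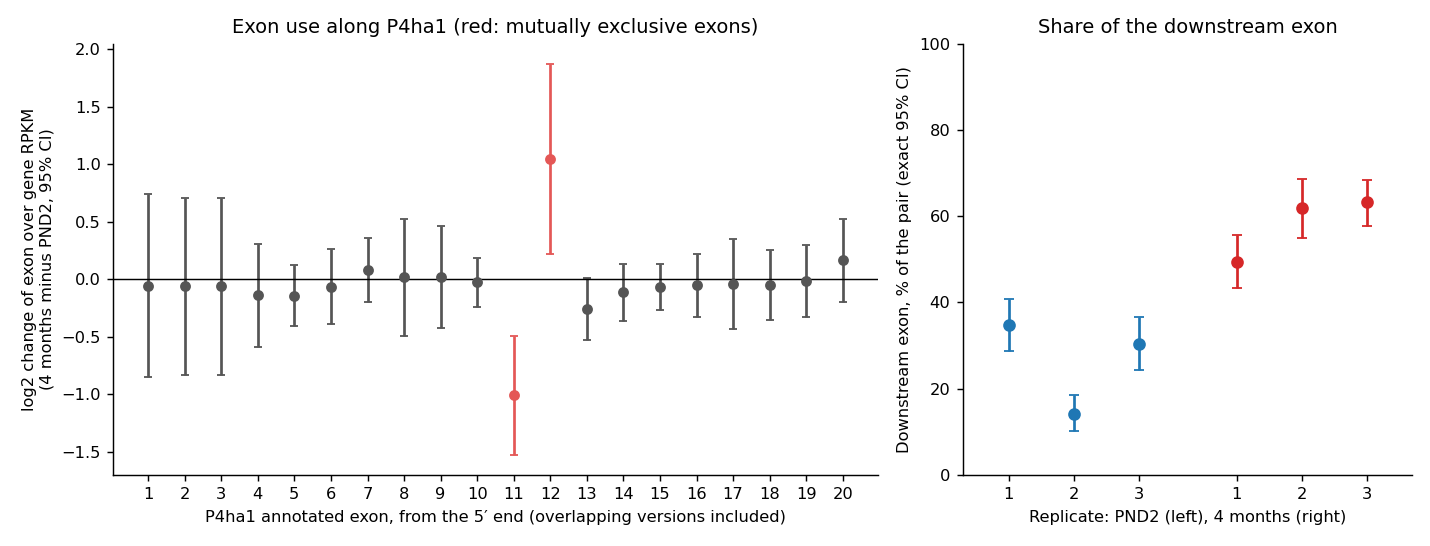
Left, change in exon use along P4ha1, as log2 of exon over gene RPKM at 4 months minus PND2 with its 95% confidence interval, for each annotated exon from the 5′ end; the mutually exclusive exons are red, at -1.01 and 1.05, and all others lie closer to 0. Right, share of the downstream exon in the reads of the pair (percent, exact 95% interval) in each library, from 14.04 to 34.7% at PND2 and from 49.4 to 63.3% at 4 months.

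Across all 10 genes, 0 of 225 tested exons passed limma's adjusted p threshold, against 0.0222% of all exons tested, and 21 had an unadjusted p under 0.05, against 10.1% of all exons. A second exon test, diffSplice on voom weights, called 2 member exons. One was a long annotated exon of P4ha2 (chr11:54127693-54129116, 1424 bases), with an adjusted p of 0.00533, which was higher relative to its gene in every 4 month library. The other was in Plod1 (chr4:147927617-147927981, - strand), with an adjusted p of 0.0418 and 26 to 51 reads in a library.

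Plod1, the lysyl hydroxylase that acts on the helical part of collagen (ENSMUSG00000019055, chr4:147909753-147936767, - strand), fell. It measured 33.7, 41.8 and 42.0 RPKM at PND2 and 19.3, 22.3 and 24.7 RPKM at 4 months, with no overlap. The mean went from 39.2 ± 4.76 to 22.1 ± 2.73 RPKM (SD, n = 3). The log2 fold change of -0.82 (SE 0.14, limma adjusted p = 0.0036) passed in all 16 alternative fits. Of its 28 exons tested, 27 had a lower RPKM in every 4 month library than in every PND2 library, as had 26.4% of all exons tested. Some of these exons are overlapping versions that share reads.

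Plod2, which hydroxylates the telopeptides where cross-links form (ENSMUSG00000032374, chr9:92542223-92608428, + strand), measured 55.3, 66.9 and 56.8 RPKM at PND2 and 38.8, 50.6 and 52.4 RPKM at 4 months. The ages did not overlap, but the log2 fold change of -0.34 (SE 0.14) had a limma adjusted p of 0.0991, and it was -0.21 without replicate 1 of 4 months. Plod3, which also has glycosyltransferase activity (ENSMUSG00000004846, chr5:136987019-136996648, + strand), measured 43.5, 53.4 and 51.8 RPKM at PND2 and 47.6, 39.7 and 52.6 RPKM at 4 months. Its ranges overlapped, and the log2 fold change was -0.09 (SE 0.13, 95% interval -0.41 to 0.22, adjusted p = 0.637); after median scaling, and without replicate 2 of 4 months, it was on the other side of 0, at 0.03 and 0.02. Plod3 overlaps Znhit1 on the opposite strand, which measured 27.3 RPKM at PND2 and 28.9 RPKM at 4 months, and whether counting used the strand is not given in the sources used here.

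Within the lysyl hydroxylases, Plod1 supplied 26.4 ± 1.33% (SD, n = 3) of the summed RPKM at PND2 and 19.0 ± 0.793% at 4 months, and Plod3 33.4 ± 0.874% and 40.3 ± 4.90%. Neither share overlapped between the ages (exact permutation p = 0.1, the smallest possible). As parts of the same sum, these shares are not separate results. Plod2 had the largest mean share of gene RPKM at both ages, 40.2 ± 2.20% and 40.7 ± 4.10%, with overlapping ranges (exact permutation p = 1, n = 3). At 4 months, however, Plod2 was above Plod3 in only 1 of 3 libraries. Plod2 there held 36.7, 44.9 and 40.4%, and Plod3 45.0, 35.2 and 40.5%. Such shares depend on annotated exon length, so this rank may not be that of the transcripts. The family's summed level was 148 ± 14.9 RPKM at PND2 and 116 ± 12.4 RPKM at 4 months, lower in every adult library (exact permutation p = 0.1, n = 3).

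Plod2 has an alternative exon of 63 bases, a multiple of 3, at chr9:92601985-92602047 (mm10, + strand), whose inclusion is known to favour telopeptide hydroxylation. It is printed because its use bears on which form of the enzyme is made.
Plod2 alternative exon: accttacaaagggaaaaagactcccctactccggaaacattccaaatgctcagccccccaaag
Its RPKM divided by the mean of its flanking exons was 1.06, 1.18 and 1.27 at PND2 and 1.14, 0.957 and 1.01 at 4 months. The ranges overlapped (exact permutation p = 0.2, where 3 against 3 cannot go below 0.1). Taken over the whole gene in the test across exons, the exon changed by -0.30 log2 (95% interval -0.56 to -0.05), with an unadjusted p of 0.0259 and a limma adjusted p of 0.422. Its RPKM was lower in every 4 month library. Reads that cross the exon's edges raise such ratios for short exons, and the ratio is not a percent of inclusion. Bmp1, which has 20 annotated exons, has 1 coding transcript in GENCODE M21, and 0 of its exons passed limma or diffSplice, with 0 at an unadjusted p under 0.05.

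Serpinh1, the collagen chaperone (ENSMUSG00000070436, chr7:99345375-99353230, - strand), was the most abundant of the 10 transcripts at both ages. It measured 532, 771 and 716 RPKM at PND2 and 505, 435 and 567 RPKM at 4 months. Replicate 1 of PND2 lay within the adult range and the other PND2 libraries above it. The log2 fold change was -0.41 (SE 0.18, limma adjusted p = 0.108), and without replicate 1 of PND2 it was -0.57 with an adjusted p of 0.0316. With each of the other libraries left out it ran from -0.50 to -0.31 and did not pass.

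Bmp1, the procollagen C-proteinase (ENSMUSG00000022098, chr14:70474557-70520260, - strand), measured 134, 156 and 132 RPKM at PND2 and 111, 93.3 and 114 RPKM at 4 months. Every adult library was lower. The mean went from 141 ± 13.3 to 106 ± 11.1 RPKM (SD, n = 3), and the log2 fold change was -0.41 (SE 0.12, limma adjusted p = 0.0303). This call passed in 8 of 16 alternative fits: the adjusted p was 0.0955 without replicate 2 of PND2, 0.0593 without replicate 3 of PND2, 0.0765 without replicate 2 of 4 months and 0.0524 without replicate 3 of 4 months, and 0.0884 after median scaling. Bmp1 made up 98.5 ± 0.144% of the summed Bmp1, Tll1 and Tll2 RPKM at PND2 and 99.1 ± 0.157% at 4 months.

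The C-proteinase enhancers, which bind the procollagen C-propeptide and speed its removal, moved in the opposite direction. Pcolce (ENSMUSG00000029718, chr5:137605103-137613784, - strand) measured 83.5, 102 and 99.997 RPKM at PND2 and 162, 128 and 169 RPKM at 4 months. Its mean went from 95.3 ± 10.2 to 153 ± 21.8 RPKM (SD, n = 3), and the log2 fold change was 0.68 (SE 0.14, limma adjusted p = 0.00832). It passed in 15 of 16 alternative fits, the exception being the per-gene unequal-variance test. Pcolce2 (ENSMUSG00000015354, chr9:95637601-95698096, + strand) measured 10.5, 10.996 and 11.9 RPKM at PND2 and 49.4, 45.6 and 51.2 RPKM at 4 months. The libraries of each age lay close together and far from the other age. The mean went from 11.1 ± 0.689 to 48.7 ± 2.86 RPKM, 4.38-fold, with a log2 fold change of 2.12 (SE 0.10, limma adjusted p = 3.09e-05) that passed in all 16 alternative fits. All 10 of its tested exons, which include overlapping versions, were higher in every adult library than in every PND2 library, as were 15.1% of all exons tested.

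Pcolce2 went from 10.5 ± 0.740% to 24.3 ± 1.69% of the summed enhancer RPKM, without overlap. The ratio of both enhancers to Bmp1 was 0.704, 0.727 and 0.847 at PND2 and 1.91, 1.86 and 1.93 at 4 months. By gene RPKM the enhancers were thus below Bmp1 in every PND2 library and above it in every adult library (exact permutation p = 0.1 for the share and for the ratio, n = 3, the smallest possible). Gene RPKM depends on annotated exon length. In PND2 replicate 1, single Pcolce exons measured 1.14 to 372 RPKM and single Bmp1 exons 17.9 to 216 RPKM. Gene RPKM therefore does not settle which transcript was more abundant at PND2. Pcolce2 overlaps 3 genes on the opposite strand, Gm16127, Gm16126 and Itpa-ps2, which stayed near 0 RPKM, and Pcolce overlaps Fbxo24 and Gm36266, at 0.753 and 2.29 RPKM at PND2.

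Levels are ordered here by gene RPKM, which depends on annotated exon length and need not give the order of the transcripts. At PND2 a Plod1 exon of 3186 bases measured only 6.52 to 7.65 RPKM, and a Pcolce2 exon of 3131 bases 3.64 to 4.28 RPKM. Such exons lower the gene value. The order of gene RPKM at PND2 was Serpinh1, Bmp1, Pcolce, Plod2, P4ha3, Plod3, Plod1, P4ha1, P4ha2 and Pcolce2. The ranges of Plod2 and P4ha3, of P4ha3 and Plod3, and of Plod1 and P4ha1 overlapped, and all other neighbours in the order were separated in every library. At 4 months the order was Serpinh1, Pcolce, Bmp1, P4ha1, Pcolce2, Plod2, Plod3, Plod1, P4ha2 and P4ha3. Here P4ha1, Pcolce2, Plod2 and Plod3 overlapped each with the next, as did Plod1 and P4ha2. The highest mean was 60.5 times the lowest at PND2 and 222 times at 4 months, with Serpinh1 highest each time and Pcolce2 and then P4ha3 lowest.

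The partners of these enzymes in collagen biosynthesis were lower on balance at 4 months. Of 28 genes in that list, 25 were tested (Tll2, Mep1a and Mep1b were under the filter). Limma called 14, or 56.0% of those tested, 2 higher and 12 lower. Of all genes tested 35.8% were called, 14.7% higher and 21.1% lower. The median log2 fold change of the list was -0.41 against -0.14 for all genes. In the complex that 3-hydroxylates proline, P3h1, the catalytic subunit, fell from 57.7 ± 10.8 to 23.9 ± 2.76 RPKM (SD, n = 3), or by -1.25 log2 (SE 0.16, limma adjusted p = 0.00125), and Ppib, the cyclophilin subunit, from 690 ± 9.29 to 455 ± 49.7 RPKM (-0.60, SE 0.12, adjusted p = 0.00734). Crtap, the helper subunit, measured 147 ± 17.7 and 155 ± 20.3 RPKM (0.07, SE 0.14, adjusted p = 0.711). The ratio of P3h1 to Crtap was 0.391 ± 0.0307 at PND2 and 0.155 ± 0.00385 at 4 months, without overlap (exact permutation p = 0.1, n = 3).

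Other partners included Fkbp10, a prolyl isomerase that acts on procollagen and is known to work with lysyl hydroxylase 2, which fell from 188 ± 35.5 to 71.1 ± 11.7 RPKM (SD, n = 3). Its log2 fold change was -1.40 (SE 0.17, limma adjusted p = 0.00115). Adamts14, a procollagen N-proteinase, fell from 10.2 ± 2.95 to 2.83 ± 1.21 RPKM (-1.85, SE 0.32, adjusted p = 0.00457), while Adamts2, the main enzyme of that kind by level here, measured 88.1 ± 13.9 and 64.7 ± 11.7 RPKM (-0.45, SE 0.17, adjusted p = 0.0762). Adamts2 passed without replicate 1 of PND2 (0.0499) and without replicate 1 of 4 months (0.0496). Tll1, a proteinase related to Bmp1, fell from 1.99 ± 0.206 to 0.934 ± 0.235 RPKM (-1.04, SE 0.26, adjusted p = 0.0204). Colgalt1, which adds galactose to hydroxylysine, fell from 97.8 ± 18.2 to 65.6 ± 4.05 RPKM (-0.56, SE 0.15, adjusted p = 0.0235). Both the Tll1 and the Colgalt1 call were lost without replicate 2 or 3 of PND2 or without replicate 2 or 3 of 4 months. Tmem38b, an endoplasmic reticulum cation channel, rose from 10.04 ± 0.654 to 22.8 ± 1.13 RPKM (1.17, SE 0.10, adjusted p = 0.000309). The count of 14 was 7 without replicate 2 of PND2, 8 without replicate 3 of PND2 and 9 without replicate 3 of 4 months, and after median scaling it was 16, 4 higher and 12 lower.

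**Figure D4:**
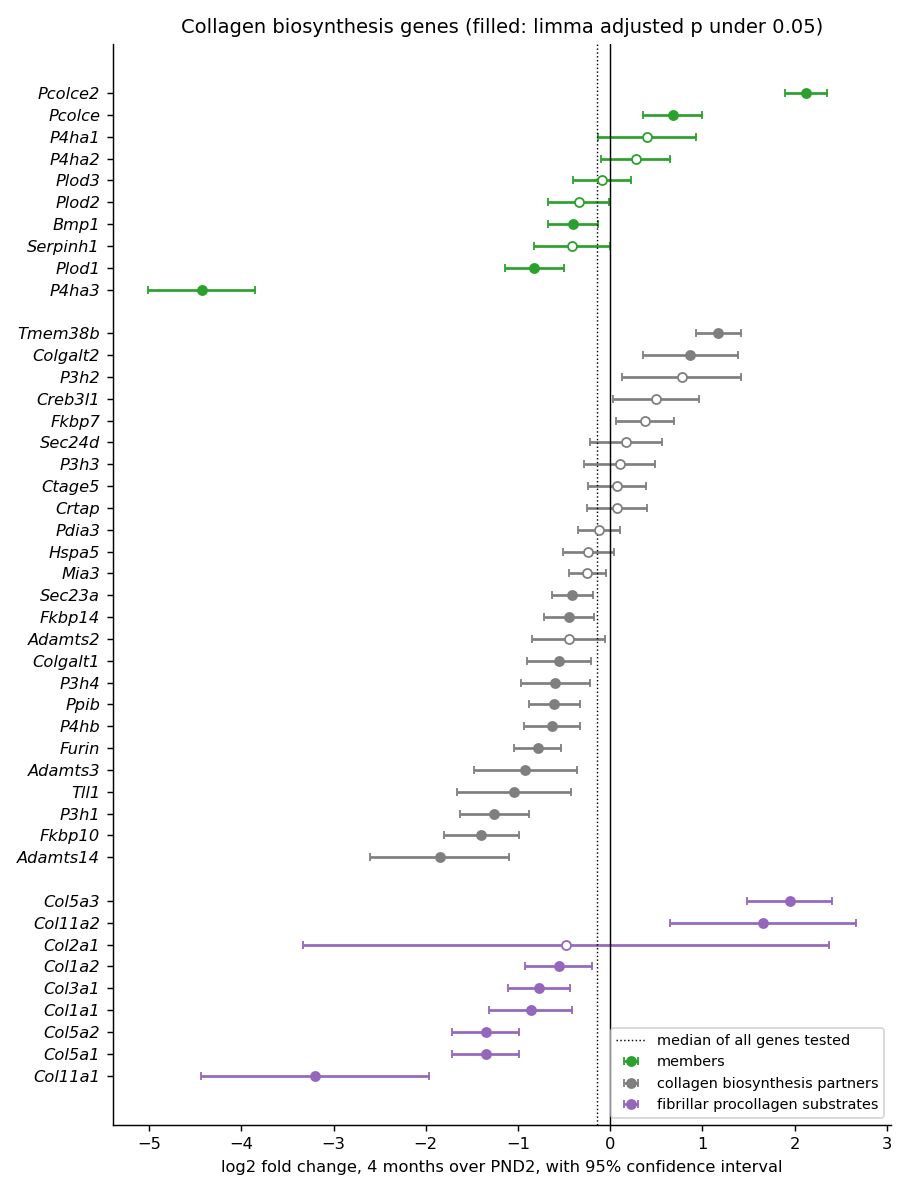
Log2 fold change, 4 months over PND2, with 95% confidence interval for the 10 genes (green), the 25 tested partners (grey) and the 9 fibrillar procollagen genes (purple); filled points had a limma adjusted p under 0.05 and the dotted line is the median of all genes tested, -0.14. Pcolce2 at 2.12 and P4ha3 at -4.43 lie at the ends of the green group, and 12 of the 14 filled grey points are left of 0.

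The fibrillar procollagens, the substrates of these enzymes, were mostly lower at 4 months. Of the 9 genes listed, 8 were called by limma, 2 higher (Col5a3 and Col11a2) and 6 lower, with a median log2 fold change of -0.77. The list, and the sum over it, left out Col24a1, which the study names among fibrillar collagens enriched at PND2. Of all genes tested 35.8% were called, 14.7% higher and 21.1% lower. Col1a1 dropped from 956 ± 181 to 524 ± 91.5 RPKM (SD, n = 3; -0.86, SE 0.19, adjusted p = 0.0119) and Col3a1 from 1412 ± 193 to 824 ± 27.3 RPKM (-0.77, SE 0.14, adjusted p = 0.00618). Col1a2 fell from 639.9 ± 108 to 432 ± 47.1 RPKM (-0.56, SE 0.15, adjusted p = 0.0284), a call lost when any library but replicate 1 of PND2 was left out and after median scaling. The regulatory chains of type V and XI collagen split. Col5a1, Col5a2 and Col11a1 changed by -1.35, -1.35 and -3.20 log2, and Col5a3 and Col11a2 by 1.94 and 1.66, the last lost without replicate 1 or 3 of PND2 or replicate 3 of 4 months. The summed level of all 9 listed genes was 3659.5 ± 532 RPKM at PND2 and 2065 ± 194 RPKM at 4 months, lower in every adult library.

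Each gene was also set against this substrate pool within its library. Because the pool itself fell by 0.82 on the log2 scale, most genes were higher relative to it: 55.6% of all genes tested were higher at 4 months without overlap and 5.91% lower, with a median log2 change of 0.68. Of the 10 enzyme genes, 8 were higher, 1 was lower and 1 overlapped. The log2 changes of Pcolce2 (2.95), Pcolce (1.50), P4ha1 (1.22), P4ha2 (1.096) and Plod3 (0.73) were above that median, and those of Plod2 (0.48), Bmp1 (0.41), Serpinh1 (0.41), Plod1 and P4ha3 were below it. Levels that follow are arithmetic means and folds are ratios of geometric means. Per 1000 RPKM of fibrillar procollagen, Pcolce2 went from 3.07 to 23.7 RPKM (7.73-fold), Pcolce from 26.1 to 73.9 (2.82-fold), P4ha1 from 10.6 to 25.1 (2.33-fold) and P4ha2 from 4.97 to 10.7 (2.14-fold). Plod3, Plod2, Bmp1 and Serpinh1 were at 1.66, 1.39, 1.33 and 1.33 times their PND2 ratio. For Serpinh1 this was 183 ± 8.41 RPKM per 1000 at PND2 and 243 at 4 months. Plod1 measured 10.7 per 1000 at both ages, with overlapping libraries and a log2 difference of -0.0059 (exact permutation p = 0.9, n = 3). P4ha3 was 12.8-fold lower, from 13.8 to 1.08 RPKM per 1000. Each of the other 9 genes was separated between the ages, with an exact permutation p of 0.1, the smallest that 3 against 3 allow. These ratios compare transcripts and do not measure enzyme or collagen protein.

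**Figure D5:**
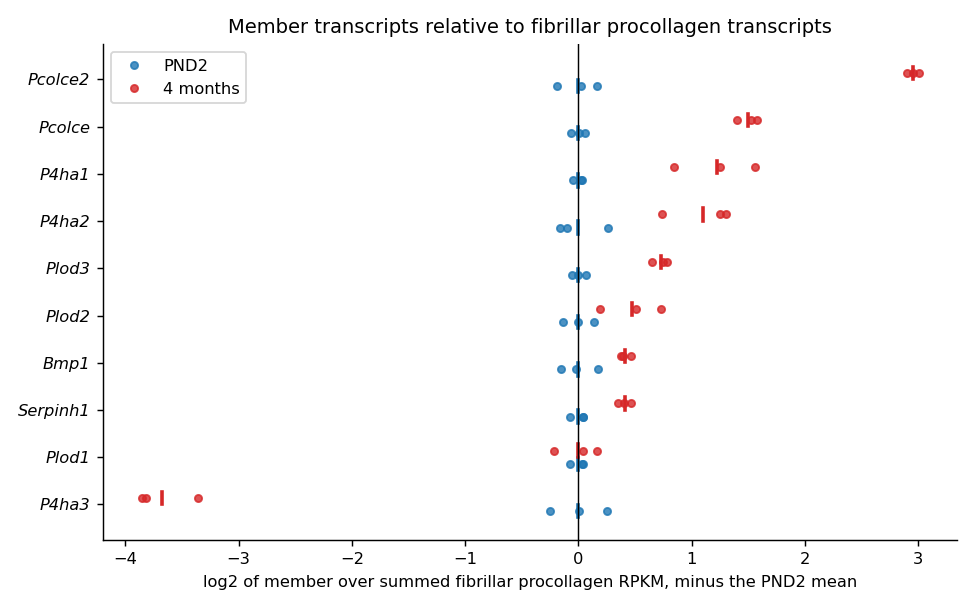
Log2 of each gene's RPKM over the summed fibrillar procollagen RPKM in the same library, with the PND2 mean set to 0 on the horizontal axis. Points are libraries (blue PND2, red 4 months) and short lines are means (n = 3); from Pcolce2 at 2.95 down to Serpinh1 at 0.41 the adult libraries lie to the right, Plod1 overlaps, and P4ha3 lies at -3.68.

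Hydroxylases of this class use oxygen, iron, 2-oxoglutarate and ascorbate. Of 18 hypoxia response genes, 3 rose and 5 fell by limma, 8 in all where 35.8% of all genes tested were called, with a median log2 fold change of -0.02. Past a 2-fold change were Ndrg1, a stress-induced gene, from 22.3 ± 3.80 to 48.7 ± 2.48 RPKM (1.13, SE 0.14, adjusted p = 0.00102), and Egln3, an oxygen-sensing prolyl hydroxylase, from 28.2 ± 6.69 to 12.4 ± 3.94 RPKM (SD, n = 3; -1.21, SE 0.28, adjusted p = 0.0135). After median scaling the list had 3 higher and 3 lower. Of 11 genes that supply ascorbate, 2-oxoglutarate or iron, 3 rose and 4 fell, 7 in all against 35.8% of all genes tested, with a median of -0.07. Fth1, the ferritin heavy chain that stores iron, rose from 950.4 ± 103 to 3872 ± 437 RPKM (2.03, SE 0.17, adjusted p = 0.000241). Tfrc, the transferrin receptor that takes iron up, fell from 34.7 ± 4.60 to 10.7 ± 2.21 RPKM (-1.69, SE 0.17, adjusted p = 0.000522), and Idh2, which makes 2-oxoglutarate in mitochondria, from 509 ± 49.2 to 223 ± 58.7 RPKM (-1.22, SE 0.20, adjusted p = 0.00368).

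Genes whose pattern over the 6 libraries was most like that of Serpinh1 and Plod2 were sought among 10603 protein-coding genes with a mean of at least 5 RPKM, by the root mean square difference of log2(RPKM + 0.1) after each gene was centred on its mean. For Serpinh1 these were Nop56, Rhbdd3, Scrib, Noc2l and Rps19bp1, at 0.0339 to 0.0559. For Plod2 they were Hcfc2, Mcu, Cmc2, Ptges3l and Tnfaip1, at 0.0664 to 0.0829. None of the 10 neighbours was a member, a partner or a procollagen gene of the lists used here. Lists of 10, 28 and 9 genes are few beside 10603, so a listed neighbour was unlikely in any case. The distance also grows with differences in the size of a change, so a gene that moved alike but by more would not be near. The absence therefore does not show that these 2 genes vary apart from the pathway.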

How the data were processed

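Aortic valve RNA was sequenced in 3 pooled libraries per age. Per the methods of the study and the submitters' notes, the authors aligned reads to mm10 with TopHat2 2.1.0, counted with easyRNASeq over the gene and exon models of Ensembl 83, and deposited RPKM values per gene and exon. Libraries were made with a stranded kit, and whether strand was used in counting is not given in the sources used here. The study's minimum of 50 reads and floor of 10 reads were not applied in the deposited RPKM values, since 32408 gene values equal 1 to 10 reads. Whole reads were recovered for 100% of gene and exon values (within 0.01 of a whole number) and used in alternatives and intervals. The p-values measure the spread between pools.

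Genes with at least 0.1 RPKM in 3 libraries were tested on log2(RPKM + 0.1) in limma (3.58.1, under R 4.3.3; eBayes with a mean-variance trend), with Benjamini-Hochberg adjustment over all genes tested. Exons with at least 1 RPKM in 3 libraries were tested likewise on log2 exon over gene RPKM. Shares and ratios were compared by exact permutation tests, 2-sided. The fits were tested on simulated data. Alternatives were pseudocounts of 1 and 0.01, other filters, no trend, median scaling, quantile normalization, voom on recovered reads, an unequal-variance test gene by gene as in the study (floor of 10 reads), a replicate block, and each library left out. Values were tabulated in Python 3.11.15 (scipy 1.17.1, pandas 2.3.3, numpy 2.4.6) and plotted with matplotlib 3.10.9. Gene positions are those of mm10, and exon sequences and transcripts come from GENCODE M21 on the same build. Named beside the 10 genes were their direct partners, Col1a1, Col1a2 and Col3a1, and other listed genes past the threshold with a fold over 2. The members and the lists were chosen with earlier results of these data known.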

Additional observations from a re-analysis of the deposited data

How the results depend on the processing

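P4ha3, Plod1 and Pcolce2 passed the threshold in the same direction in all 16 alternative fits. Of 528 values of the 33 named genes under the alternatives, 477 kept their direction and their side of the threshold, 44 fell short of it, 4 newly passed it and 3 changed sign. Of the values that fell short, 15 came from the per-gene unequal-variance test with a floor of 10 reads, which called 3341 genes in all rather than 9273, and 3 members, 5 partners, 3 procollagens, 1 hypoxia gene and 3 cofactor genes. The sign changed for Plod3 (0.030 after median scaling, and from -0.18 to 0.020 with each library left out, the highest without replicate 2 of 4 months) and for Crtap (from -0.027 to 0.19 with each library left out, the lowest without replicate 1 of PND2). With each library left out in turn, 4 to 6 members, 7 to 16 partners, 6 to 7 procollagens and 0 member exons were called. diffSplice on voom weights called 2 member exons. As shares of whole reads, which favour long transcripts, the difference between the ages was 22.0 percentage points for P4ha1, -34.0 for P4ha3 and 15.5 for Pcolce2, rather than 31.7, -43.8 and 13.8. Relative to Col1a1 and Col1a2 alone, the log2 change was 0.64 for Plod3, 0.32 for Serpinh1 and 1.41 for Pcolce, where the full sum gave larger changes. The causes of these differences were not tested.

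Replicate numbers did not pair the samples: deviations of same-numbered libraries from their age's mean correlated at 0.04, -0.06 and -0.16. With a replicate block, 4 members were called (Bmp1 was lost, adjusted p = 0.0800), 11 partners, 7 procollagens and 0 member exons, and 7167 genes in all. No library correlated best with its own number.

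With 3 pools per age, shares and ratios cannot reach an exact p below 0.1. RPKM is relative to the library total, so transcripts of muscle and other tissue change the level of every gene in it.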
